A study of Rattus norvegicus with 48 samples.

Results

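MiR-375-3p, listed as rno-miR-375-3p, was 1 of 645 mature miRNAs counted in rat blood plasma, and it was taken by that name alone. The 48 plasma samples came from 12 male rats bled from the tail vein 4 times each: at baseline (week 0) and at weeks 1, 4 and 8 after a round defect was drilled into the skull vault (calvaria) at 12 weeks of age. By bone formation on microCT, the study picked 6 strong regenerators (rats 2, 5, 17, 21, 23 and 29) and 6 weak regenerators (rats 3, 6, 7, 16, 25 and 26). The baseline labels give the regeneration as unknown, so baseline samples were grouped by animal. Defects were left empty or received a collagen hydroxyapatite (CHA) scaffold, which was plain, carried plasmid DNA for BMP2 and miR-590-5p, or carried extracellular vesicles of mesenchymal stromal cells. The labels give no treatment for the single rats and call the groups unbalanced. By the paper's account, plain scaffolds occurred only among the strong regenerators, and plasmid and vesicle scaffolds were more common among the weak ones. The part of the treatment in a difference between strong and weak regenerators was not tested. The study's methods name Sprague-Dawley rats, while another passage of the paper names Wistar rats.

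MiRNAs are short RNAs that guide Argonaute proteins to messenger RNAs, which they recognise mainly through the seed near the 5′ end. MiR-375 is abundant in the endocrine islets of the pancreas, where it is known to limit insulin secretion and to be needed for a normal alpha and beta cell mass. It is also expressed in neuroendocrine cells, in the pituitary and in the epithelium of the gut, lung and other organs. Plasma holds miRNAs released from many tissues and from blood cells, so a plasma level does not name its source, and more cells of a type cannot be told apart from more RNA released per cell.

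The mature sequence, whose seed (bases 2 to 8) stands in capitals, is shown because reads were assigned to the miRNA by it, and the hairpin, whose capitals mark the mature miR-375-3p, shows the arm it is cut from.
miR-375-3p: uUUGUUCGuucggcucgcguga
mir-375 hairpin: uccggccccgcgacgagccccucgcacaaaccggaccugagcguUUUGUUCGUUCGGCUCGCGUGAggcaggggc
Both sequences are those of RefSeq for the rat assembly GRCr8, where the 22-base mature miRNA lies on the minus strand at chr9:83906591-83906612 and the 75-base hairpin at chr9:83906582-83906656. The hairpin's span overlapped the annotated spans of Cryba2, which encodes a lens crystallin, and of LOC134480387, with Cfap65 and Fev as the nearest genes beyond them. The gene table used here gives neither strand nor exons, so an exonic or intronic position was not set. The seed UUGUUCG occurred in 1 of the 693 mature rat miRNA names with a RefSeq sequence, miR-375-3p itself. The closest of the other names, miR-1843a-3p, matched it at 13 bases, and no other name matched at more. MiR-375-5p, cut from the other arm of the hairpin, had no row among the 645 miRNAs.

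Depth bounded the precision of each value. The libraries held 393259 to 1586398 miRNA reads, and miR-375-3p had reads in 48 of 48 of them, from 475 to 3536. Levels are given in RPM, the reads of a miRNA scaled to a library of 1000000 miRNA reads, with spike-ins left out. Counting error alone, as the distance from a value to the bounds of its exact 95% Poisson interval (mean of both sides), came to between 3.31% and 9.10% of a sample's value. Over all samples the mean level was 2225 RPM, or 0.222% of miRNA reads, which ranked miR-375-3p 56th of 645, just below let-7g-5p at 2252 RPM and just above miR-23b-3p at 2130 RPM. Within single samples its rank ran from 33 to 75. The lowest and highest samples stood 7.19-fold apart, at 903 and 6491 RPM. Its coefficient of variation was 41.8%, against a median of 41.6% for miRNAs with a mean of at least 10 RPM.

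Before surgery miR-375-3p lay lower in most strong regenerators than in most weak regenerators. At baseline the 6 strong regenerators lay between 985 and 1909 RPM with a median of 1592 RPM, and the 6 weak regenerators between 1079 and 3138 RPM with a median of 2733 RPM. The groups overlapped: 4 weak rats stood above every strong rat, while weak rat 3, at 1079 RPM, was lower than all strong rats but rat 21. At week 1 strong regenerators ran from 903 to 2182 RPM (median 1868) and weak regenerators from 1417 to 2593 RPM (median 2140). At week 4 the order of the medians turned, with 1143 to 2354 RPM (median 2202) in strong and 1503 to 2909 RPM (median 2019) in weak regenerators. At week 8 strong regenerators ran from 1998 to 3646 RPM (median 2460) and weak regenerators from 1685 to 6491 RPM (median 3070). The groups overlapped at every week.

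**Figure D1:**
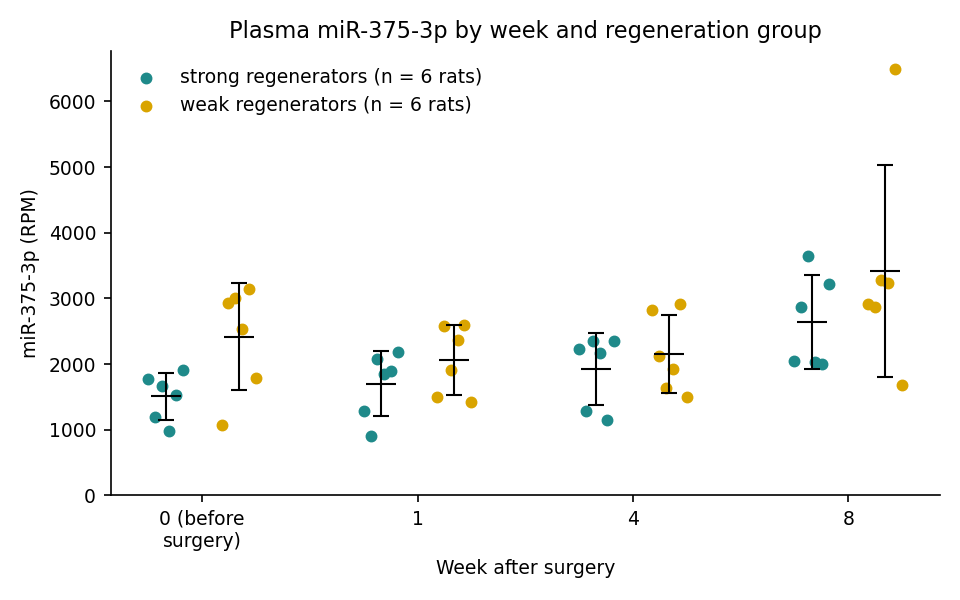
MiR-375-3p in RPM (y axis) at each week (x axis, evenly spaced) in strong (turquoise) and weak (yellow) regenerators; each point is 1 rat, and the black bars give the mean ± SD (n = 6). The baseline means were 1507 ± 354 and 2414 ± 816 RPM, the ranges overlapped at every week, and 1 weak rat reached 6491 RPM at week 8.

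The courses of single rats differed. Weak rat 25 was the highest of the 12 at all 4 weeks, with 3138, 2593, 2909 and 6491 RPM. Strong rat 5 was the lowest by geometric mean, with 1193, 903, 1289 and 2875 RPM. Weak rat 26 was the second lowest by that measure, with 1791, 1417, 1503 and 1685 RPM. Weak rat 3 rose from 1079 and 1500 RPM at the first 2 bleedings to 2816 and 2910 RPM at the last 2. Of the 12 rats, 8 had their highest value at week 8.

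**Figure D2:**
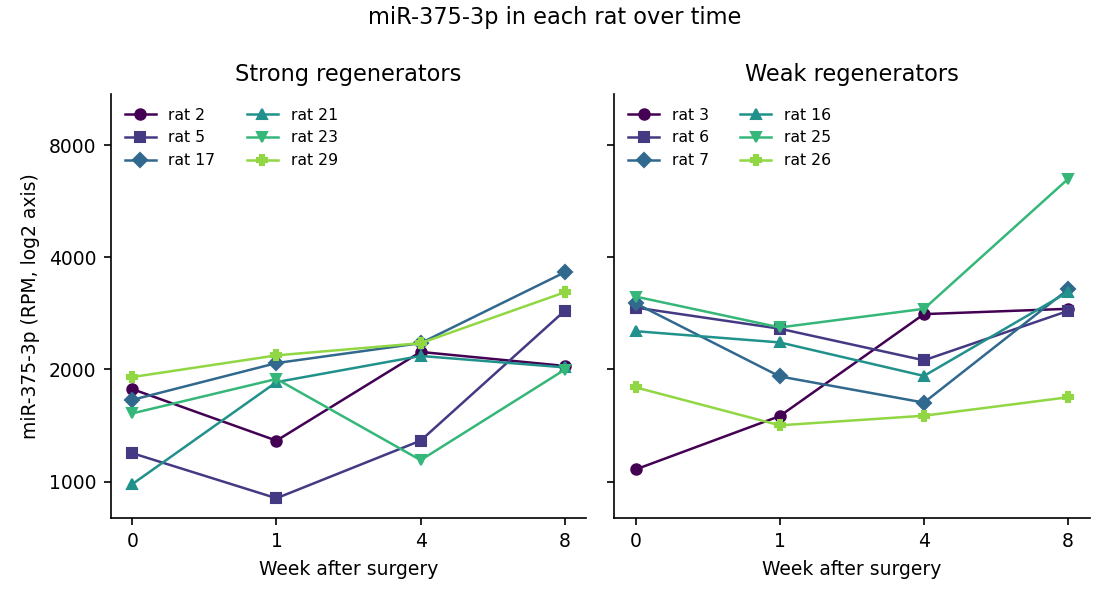
MiR-375-3p of each rat (RPM, log2 y axis) over the 4 weeks (x axis, evenly spaced) in strong (left) and weak (right) regenerators, 1 line per rat. All 6 strong and 4 of 6 weak rats ended above their baseline, and rat 25 was highest throughout.

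The level of a rat at one week was compared with its level at another, to ask whether it was kept. Pearson's r over the 12 rats, on log2(RPM + 1), was 0.63 between weeks 0 and 1 (Spearman's rho 0.692), and the permutation p was 0.0288 for r (0.157 after Benjamini-Hochberg adjustment over the 6 pairs of weeks) and 0.0157 for rho (0.0942 adjusted). Without the 2 rats farthest from the median, r was 0.680. Between weeks 0 and 4, r was 0.127 (rho 0.112), between weeks 0 and 8 it was 0.521 (rho 0.497), between weeks 1 and 4 it was 0.430 (rho 0.378), between weeks 1 and 8 it was 0.491 (rho 0.587), and between weeks 4 and 8 it was 0.533 (rho 0.566). No pair of weeks passed after adjustment (lowest permutation p, adjusted, 0.157 for r and 0.0942 for rho). For weeks 0 and 8, r fell to 0.211 without the 2 rats farthest from the median. Of the sum of squares of the log2 values, 34.3% lay between rats of the same group, 23.97% between weeks, 10.3% between strong and weak regenerators, 2.35% in the difference of time courses between the groups, and 29.1% in the rest.

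After surgery miR-375-3p was higher at week 8, relative to the other miRNAs, and no change passed the test at week 1 or week 4. Over the 12 rats the mean ± SD was 1960 ± 764 RPM at baseline, 1880 ± 524 RPM at week 1, 2037 ± 560 RPM at week 4 and 3023 ± 1258 RPM at week 8. By edgeR's quasi-likelihood test, with false discovery rates (FDR) by Benjamini-Hochberg, the log2 fold change from baseline was 0.05 (SE 0.16, FDR 0.829) at week 1, 0.16 (SE 0.16, FDR 0.604) at week 4 and 0.69 (SE 0.16, FDR 0.000465) at week 8. The 3 comparisons share the baseline samples. Of all miRNAs tested, 20.2% passed at week 1, 4.19% at week 4 and 42.9% at week 8. These shares are not directly comparable, because a filter on mean RPM set how many miRNAs were tested. It left 257 for week 1, 645 for week 4 and 595 for week 8. Without the filter, week 1 had 21 passing miRNAs, week 4 had 27 and week 8 had 244. The call at week 8 was thus 1 among many: 88 of 595 miRNAs, or 14.8%, passed as higher and 167, or 28.1%, as lower. Of 310 miRNAs with a mean of at least 10 RPM, 45 had a higher log2 fold change at week 8 and 139 one of larger size in either direction, and their median was -0.13. Against week 4, which leaves the baseline samples out, the log2 fold change at week 8 was 0.53 (SE 0.16, FDR 0.00769), where 38.2% of miRNAs passed.

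Taken rat by rat, the level at week 8 was 1.55-fold that at baseline (mean log2 change 0.64 ± 0.54 SD, higher in 10 of 12 rats), with p = 0.00195 by the exact two-sided permutation test of sign changes (0.00781 adjusted over 4 time comparisons). The 2 rats that were lower at week 8 were weak rats 6 and 26, at 2872 and 1685 RPM against 2932 and 1791 RPM at baseline. Against week 4 the change was 0.53 ± 0.46 on the log2 scale, higher in 10 of 12 rats (exact permutation p = 0.00439, adjusted 0.00879). At week 1, 5 of 12 rats were higher than at baseline (mean log2 change -0.02, exact permutation p = 0.901), and at week 4, 6 of 12 were (0.10, exact permutation p = 0.604).

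The direction at week 8 depended on what the reads were set against. UniSp2, a synthetic RNA added in equal amount to each sample at RNA extraction, gave 91.1 to 144 reads per 1000 miRNA reads at week 8, against 23.3 to 60.4 at the other weeks, so all 12 week 8 samples stood apart from the other 36. Set against UniSp2, miR-375-3p fell from 56.5 ± 17.7 reads per 1000 UniSp2 reads at baseline to 24.9 ± 10.9 at week 8 (n = 12), with 48.6 ± 14.2 at week 1 and a mean of 51.7 (28.4 to 112) at week 4. With UniSp2 as the scale, the log2 fold change at week 8 was -1.18 (SE 0.18, FDR 5.48e-08) against baseline and -1.04 (FDR 8.73e-07) against week 4. The median of the 310 miRNAs was then -2.01, so miR-375-3p lay 0.83 above it, next to 0.81 above it under the main scaling (TMM, which assumes that most miRNAs do not change). A higher share of the miRNA pool and fewer reads per spike-in were thus both measured at week 8, and a batch of week 8 samples cannot be told apart from time after surgery.

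**Figure D3:**
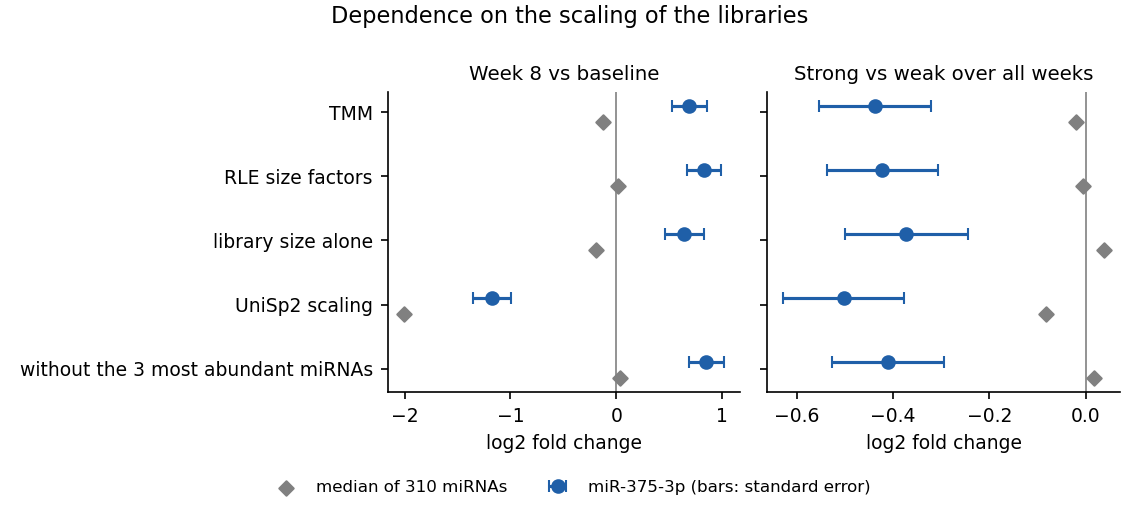
Log2 fold change of miR-375-3p (blue, bars: standard error) and the median of 310 miRNAs with a mean of at least 10 RPM (grey diamonds) under 5 scalings of the libraries, for week 8 against baseline (left) and strong against weak regenerators over all weeks (right). On the left the sign turns to -1.18 with UniSp2 scaling while miR-375-3p lies 0.81 to 0.83 above the median in all 5; on the right all 5 values lie below 0.

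Over all weeks miR-375-3p averaged lower in strong than in weak regenerators, at 1941 ± 670 against 2509 ± 1073 RPM (SD over 24 samples, 4 per rat), but the difference did not pass the test across all miRNAs. The log2 fold change of strong against weak was -0.44 (SE 0.12, unadjusted p = 0.000388, FDR 0.103 by edgeR's quasi-likelihood test). It ranked 1st of 645 by p, and 9 of the 310 more abundant miRNAs had a lower log2 fold change. In this comparison 0% of miRNAs passed, with 64 at an unadjusted p under 0.05, and DESeq2 and limma-voom also passed 0, with 41 and 22 at an unadjusted p under 0.05. The study chose miR-375-3p by this comparison on these samples, so its rank is not independent evidence. That fit counts the 4 samples of a rat as separate. With 1 summed library per rat, the log2 fold change was -0.37 (unadjusted p = 0.0255, FDR 0.787), and with the rat as a random block it was -0.40 (FDR 0.683). Without weak rat 26, and in no other fit with 1 rat left out, the difference passed (-0.54, FDR 0.00564).

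Compared as rat means, weak regenerators were 1.27-fold higher over all weeks and were the higher in 28 of 36 pairs of a weak and a strong rat (exact two-sided permutation test, p = 0.106, adjusted 0.265 over 5 comparisons). At baseline they were 1.54-fold higher, in 30 of 36 pairs (exact permutation p = 0.0541, adjusted 0.265). At weeks 1, 4 and 8 they were 1.23-fold, 1.13-fold and 1.23-fold higher, in 26, 20 and 23 of 36 pairs, and the exact permutation p was 0.277, 0.494 and 0.351. The smallest p that 6 against 6 rats allows is 0.00216. Without weak rat 3 the baseline difference was -0.84 on the log2 scale (exact permutation p = 0.00433), and without strong rat 29 it was -0.70 (exact permutation p = 0.0498). Without weak rat 26 the difference over all weeks was -0.46 (exact permutation p = 0.0346). With any 1 rat left out, the baseline difference ran from -0.84 to -0.51, with exact permutation p up to 0.119. Over all weeks the difference then ran from -0.46 to -0.23, with exact permutation p up to 0.225. Per UniSp2 read, a comparison added after seeing the data, weak regenerators were 1.37-fold higher over all weeks (31 of 36 pairs, exact permutation p = 0.0563) and 1.45-fold higher at baseline (31 of 36 pairs, exact permutation p = 0.0346), with 0.141 after adjustment over the 5 comparisons for both. At weeks 1, 4 and 8 they were 1.32-fold, 1.39-fold and 1.31-fold higher per UniSp2 read (exact permutation p = 0.130, 0.145 and 0.182).

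Week by week, the fitted log2 fold change of strong against weak was -0.68 at baseline (SE 0.23, FDR 0.535), -0.36 at week 1 (SE 0.23, FDR 0.900), -0.21 at week 4 (SE 0.23, FDR 0.909) and -0.50 at week 8 (SE 0.23, FDR 0.747). The values were negative at all 4 weeks. The value at week 4 moved most with the setting: it was -0.58 with UniSp2 scaling (unadjusted p = 0.0294, FDR 0.430) and ran from -0.30 without weak rat 26 to -0.09 without weak rat 3 or strong rat 5, with -0.13 without strong rat 23 or weak rat 6. With 1 rat left out, the value at week 8 ran from -0.64 to -0.29, the latter without weak rat 25 (lowest FDR 0.674). The baseline value then ran from -0.88 to -0.57 (lowest FDR 0.187). At weeks 0, 1 and 4, 0% of the 645 miRNAs passed, with 42, 32 and 25 at an unadjusted p under 0.05 (DESeq2 32, 17 and 13, with 0 passing), and at week 8 0.155% passed, which was 1 miRNA other than miR-375-3p.

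No difference between the time courses of the groups passed a test. From baseline to week 1, strong regenerators changed by 0.15 and weak regenerators by -0.18 on the log2 scale (mean over 6 rats each), and 4 strong rats and 1 weak rat were higher. To week 4 the changes were 0.33 and -0.12, with 5 strong rats and 1 weak rat higher. To week 8 they were 0.80 and 0.47. The differences of the changes had exact permutation p of 0.227, 0.266 and 0.310, and 0.310 each after adjustment over the 3. In the fit across all miRNAs they were 0.33, 0.47 and 0.18 (SE 0.33 each, FDR 1.00, 0.762 and 1.00), and 0% of miRNAs passed at each of the 3 weeks, with 27, 38 and 26 at an unadjusted p under 0.05 (DESeq2 14, 31 and 19, with 0 passing). Without weak rat 3, whose level rose to week 4, the difference to week 4 was larger, at 0.75 against 0.45 with it (exact permutation p = 0.0152). Leaving out any 1 rat gave 0.29 to 0.75 for this difference, with exact permutation p up to 0.496.

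**Figure D4:**
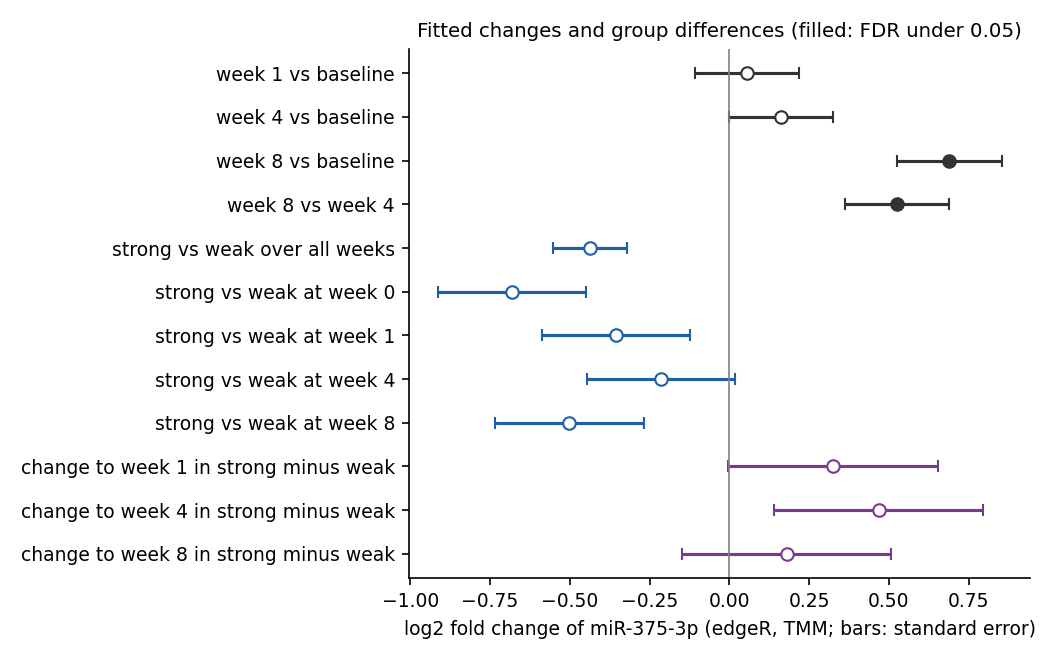
Log2 fold change of miR-375-3p (x axis) with its standard error in the 12 fitted comparisons (y axis): time against baseline or week 4 (black), strong against weak (blue) and differences between the changes (purple). Filled points, FDR under 0.05, are week 8 against baseline (0.69) and week 8 against week 4 (0.53); all 5 blue values are negative and none passed.

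Across the samples miR-192-3p had the highest Pearson's r with miR-375-3p, a place that changed with the setting. MiR-320-3p came first by Spearman's rho (0.632) and in weak regenerators alone. First in strong regenerators alone and without weak rat 25 was miR-6216, and without weak rat 6 miR-409a-3p. With week and rat means removed it was miR-187-3p (0.747), and over the rat means miR-200b-5p (0.789). At weeks 1, 4 and 8 alone, miR-200b-5p (0.730), miR-126a-5p (0.872) and miR-194-3p (0.926) came first. These names were added after their values were seen. Pearson's r was taken on log2(RPM + 1) after removal of the week means, over 48 samples of which 4 share a rat and each shares 1 miRNA total among its values, so r is a description. Among 309 other miRNAs with a mean of at least 10 RPM the median r was 0.07, with 194 above 0, 13 above 0.5 and 1 below -0.5. The 5 highest were miR-192-3p (r = 0.66), from a miRNA of gut, liver and kidney, miR-429 (0.61), of the epithelial miR-200 family, miR-409a-3p (0.61), of the imprinted Dlk1-Dio3 locus, miR-7a-2-3p (0.56), from a precursor of miR-7, an islet and neuroendocrine miRNA, and miR-187-3p (0.55). The 5 lowest were miR-185-5p (-0.55), miR-488-3p (-0.43), miR-106b-3p (-0.41), of the miR-106b-25 cluster, miR-144-3p (-0.41), an erythroid miRNA, and miR-339-5p (-0.40). With TMM-scaled values, in the same order, the 5 highest had r of 0.61, 0.51, 0.48, 0.56 and 0.41. The 5 lowest then had r of -0.41, -0.41, -0.27, -0.26 and -0.43.

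The mature sequences of 8 of these miRNAs (RefSeq, seed in capitals) are shown so that their seeds can be set beside that of miR-375-3p.
miR-192-3p: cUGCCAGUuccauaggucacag
miR-409a-3p: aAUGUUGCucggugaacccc
miR-7a-2-3p: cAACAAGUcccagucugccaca
miR-185-5p: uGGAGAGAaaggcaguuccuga
miR-488-3p: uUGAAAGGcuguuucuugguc
miR-106b-3p: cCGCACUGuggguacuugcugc
miR-144-3p: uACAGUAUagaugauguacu
miR-339-5p: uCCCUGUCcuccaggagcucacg
Each seed differs from that of miR-375-3p and from the other 7.

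The 10 were picked on these same samples, so the sign of r in either group alone was largely set by the choice; 5 of them were among the 10 most extreme in strong regenerators alone and 2 in weak regenerators alone. For miR-192-3p r was 0.63 in strong and 0.64 in weak regenerators, and 0.83, 0.67, 0.61 and 0.51 at weeks 0, 1, 4 and 8 (12 rats each). For miR-429 it was 0.70 and 0.58, and 0.63, 0.53, 0.81 and 0.62 by week. MiR-187-3p rose to 0.75 once the rat means were removed too, while over the 12 rat means it was 0.37. MiR-7a-2-3p turned to -0.29 and miR-488-3p to 0.26 at week 4, the exceptions in sign by week. Without the 2 samples farthest from the median of miR-375-3p, miR-192-3p kept r = 0.61 and miR-429 0.53.

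**Figure D5:**
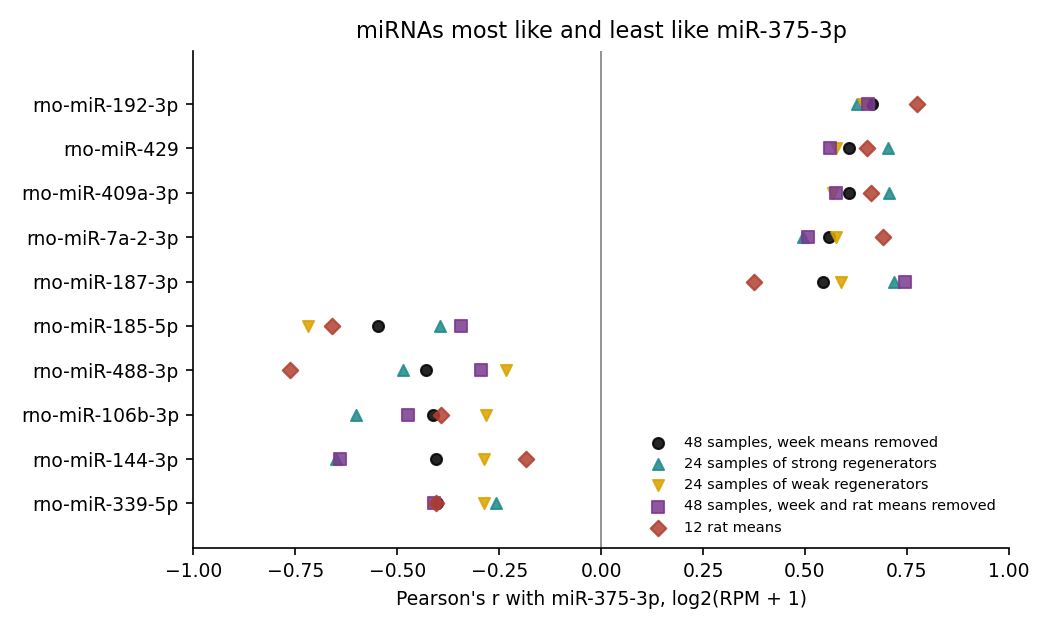
Pearson's r with miR-375-3p (x axis) for the 5 miRNAs with the highest and the 5 with the lowest r (y axis), over 48 samples with week means removed (black), in each regeneration group alone (triangles), with rat means removed too (squares) and over 12 rat means (diamonds). MiR-192-3p lies between 0.63 and 0.77 in all 5; since the miRNAs were chosen by the black points, the other points are no independent check.

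The miRNAs that varied with miR-375-3p did not all move with it over time. MiR-192-3p was higher at week 8 than at baseline (log2 fold change 0.91, FDR 0.000287), as was miR-187-3p (0.42, FDR 0.0452). MiR-409a-3p fell, from 23.9 to 7.41 RPM (log2 fold change -1.59, FDR 1.72e-05), and miR-185-5p from 101 to 47.8 RPM (-0.97, FDR 0.00754). MiR-144-3p fell as well (-0.41, FDR 0.0424). The other arms of the miR-192 and miR-144 hairpins moved the opposite way. MiR-192-5p, with a mean of 7465 RPM against 30.4 RPM for miR-192-3p, was lower at week 8 (-0.84, FDR 0.000107). MiR-144-5p was higher (1.14, FDR 2.17e-07). MiR-429 (0.22, FDR 0.390) and miR-7a-2-3p (0.58, FDR 0.140) did not pass. None of the 10 passed between strong and weak regenerators; miR-192-3p had a log2 fold change of -0.35 (FDR 0.328) over all weeks and -0.84 (FDR 0.535) at baseline.

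Islet miRNAs did not rise together with miR-375-3p at week 8. The list held 7 miRNAs, all in the table, of which 5 had a mean of at least 1 RPM, and the most abundant, miR-183-5p at 122 RPM, lay far below miR-375-3p. At week 8 against baseline, 1 of 7 was higher and 2 were lower, with a median log2 fold change of -0.58 (42.9% of all miRNAs passed, and the median of the 310 was -0.13). That median is the value of miR-96-5p, which had a mean of 6.87 RPM. Scarcest were miR-7b and miR-153-3p, with reads in 4 and 18 of 48 samples. MiR-7a-5p, a miRNA of endocrine and neuroendocrine cells, fell from 44.5 ± 22.9 to 22.8 ± 5.79 RPM (log2 fold change -0.91, FDR 0.00925), and miR-184 fell by 2.87 on the log2 scale (FDR 0.0051). MiR-153-3p, higher at week 8, had a mean of 0.741 RPM, and its log2 fold change was 1.79 (FDR 0.0394), or 1.86 (FDR 0.051) with the rat as a block. MiR-182 (-0.16, FDR 0.643), miR-183-5p (0.10, FDR 0.748) and miR-96-5p (-0.58, FDR 0.386) did not pass. Across samples r was 0.43 for miR-182, 0.46 for miR-183-5p, 0.10 for miR-96-5p, -0.16 for miR-7a-5p and -0.23 for miR-184.

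Exocrine pancreas miRNAs were scarce but for miR-148a-3p, which many tissues express. All 4 were in the table and 2 had a mean of at least 1 RPM. MiR-217-5p, a marker of acinar cells, had a mean of 3.86 RPM and r = 0.01 with miR-375-3p, and miR-148a-3p, at 4593 RPM, fell at week 8 (-1.04, FDR 7.94e-12).

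Of 11 epithelial miRNAs listed, 10 were in the table, and all 10 had a positive r with miR-375-3p across samples, next to 194 of 309 miRNAs, from 0.23 for miR-205, of stratified epithelium, to 0.61 for miR-429, with a median of 0.38. Between these lay miR-192-5p (0.51), miR-141-3p (0.46), miR-200a-3p (0.41), miR-31a-5p (0.38), miR-200c-3p (0.37), miR-194-5p (0.34), miR-200b-3p (0.28) and miR-203a-3p (0.24). Several of the 10 belong to the miR-200 family, so they are not separate observations. MiR-429 was also among the correlates picked by r on these same samples. At week 8, 0 of 10 were higher and 2 were lower, miR-200a-3p (-0.85, FDR 0.000975) and miR-192-5p (-0.84, FDR 0.000107), and 3 were lower with the rat as a block. Over all miRNAs 14.8% were higher and 28.1% lower, so these counts do not set the list apart. The summed level of the list ran from 17009 to 42509 RPM at baseline and from 11336 to 45700 RPM at week 8. Between strong and weak regenerators over all weeks, 0 of 10 passed, 9 of 10 fold changes were negative, and the median was -0.12, next to -0.02 for the 310 miRNAs. Positive fold changes were held by 0 of 6 red blood cell, 2 of 7 islet and 1 of 4 exocrine pancreas miRNAs. They were held by 4 of 4 muscle, 3 of 4 liver and 3 of 5 platelet and leukocyte miRNAs. Negative values were thus not particular to the epithelial list. The summed list ran from 13819 to 56418 RPM in strong and from 11336 to 113642 RPM in weak regenerators.

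Among markers of the other sources of plasma miRNA, red blood cell miRNAs went the other way across samples. Of 6 listed, 5 had a negative r, from -0.41 for miR-144-3p, with miR-363-3p at 0.33 as the exception, and the summed list had r = -0.37. These r values are on RPM, where this list takes up a large part of the total that it shares with miR-375-3p. The part of that shared total in a negative r was not tested. With TMM-scaled values r was -0.26 for miR-144-3p. At week 8, 3 of the 6 were higher and 1 was lower, where 14.8% of all miRNAs were higher and 28.1% lower, and the sum ran from 272042 to 380829 RPM against 200449 to 303666 RPM at baseline. In strong regenerators the sum ran from 200449 to 390506 RPM and in weak regenerators from 232614 to 396846 RPM. With UniSp2 scaling, 1 of 645 miRNAs was higher and 496 were lower at week 8, so calls of higher miRNAs in these lists hold for shares of the miRNA reads. Platelet and leukocyte miRNAs (5 listed) had r between 0.05 and 0.38, and 0 were higher and 2 lower at week 8. Liver miRNAs (4 listed) had r between 0.11 and 0.44, and 1 was higher and 1 lower, or 2 higher with the rat as a block, where miR-802-3p passed (FDR 0.0456, against 0.0983 without it). Muscle miRNAs (4 listed) had r between -0.05 and 0.09, and 0 passed at week 8, or 2 with the rat as a block, miR-133a-3p (0.85, FDR 0.00665) and miR-133b-3p (0.70, FDR 0.0377), both higher. MiR-133a-3p, which the study paired with miR-375-3p as differing between the groups, had r = 0.04. None of the listed miRNAs passed between strong and weak regenerators over all weeks. The part of these sources in the results on miR-375-3p was not tested.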

How the data were processed

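Total RNA from plasma was made into small RNA libraries by single-adapter ligation (RealSeq), with spike-ins added at extraction. Per the methods and the labels, the authors trimmed reads with cutadapt 3.3, checked them with FastQC 0.11.9 and MultiQC 1.10, and used Bowtie 1.3.0 and miRDeep2 for mapping, first against the genome and next against miRBase's rat entries, with few mismatches allowed. The labels name a human build (GRCh38.p12), the methods Rnor_6.0. The deposited table holds raw read counts per mature miRNA; 3 spike-in rows were left out of totals and tests. Ligation and PCR without molecular identifiers affect counts, so intervals cover counting error only, and RPM compares reads, not molecules, between miRNAs.

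Counts were tested with edgeR 4.0.16 (legacy quasi-likelihood, TMM, week and regeneration group as terms, or 1 mean per group and week) in R 4.3.3, with Benjamini-Hochberg adjustment over all miRNAs after an independent filter on mean RPM, as the methods describe. SE is the log2 fold change divided by the square root of F. DESeq2 1.42.0 and limma 3.58.1 were alternatives. Single values on log2(RPM + 1) were compared by exact permutation tests, correlations by 100000 permutations (scipy 1.17.1). Scripts were tested on simulated data. Named were miR-375-3p, the 5 highest and 5 lowest correlates, its neighbours in abundance and lists of marker miRNAs. The members and lists were chosen with earlier results of these data known.

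Replicate numbers are rats, so they pair samples across weeks. Deviations from group means correlated at 0.107 on average within a rat and at -0.0289 between rats. The mean within a rat was above 0.1 in 6 of 12 rats, so the pairing rests on the animal numbers of the labels and this check is weak. In the paired fit with the rat as a block, week 8 was 0.68 above baseline (log2, FDR 3.19e-05). No 2 of the 1128 pairs of libraries agreed within counting noise. Of the 645 miRNAs, 583 matched a RefSeq sequence.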

Additional observations from a re-analysis of the deposited data

Results flagged for a closer look

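In weak regenerators at week 8, rat 25 had 6491 RPM, farther from the other 5 rats than Dixon's 95% value allows. Without rat 25 the log2 fold change at week 8 was 0.62 (FDR 0.00192), against 0.69 with it, and strong against weak regenerators at week 8 was -0.29 (FDR 0.792), against -0.50.

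In weak rat 3 miR-375-3p changed by 1.38 on the log2 scale from baseline to week 4, apart from the other 5 weak rats, of which none was higher at week 4. In all, 16 groups of 6 values were looked at and 2 had such a value. Chance gives about 1 in 20 groups where groups are separate and values are normally distributed. These groups share rats, weeks and baseline values, so that rate is only a rough guide.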

How the results depend on the processing

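With UniSp2 as the scale, the log2 fold change against baseline turned to -0.21 at week 1, -0.13 at week 4 and -1.18 at week 8, that of week 8 against week 4 to -1.04, and the change to week 4 in strong minus weak regenerators to -0.0362. Rat by rat, per UniSp2 read (added after seeing the data), it was -0.17 at week 4 and -1.21 at week 8 against baseline and -1.04 at week 8 against week 4 (exact permutation p = 0.000488 for both week 8 values, the smallest these 12 rats allow). With library size alone, week 1 was -0.0357. Leaving out 1 rat at a time gave -0.0015 to 0.11 for week 1, 0.62 to 0.87 for week 8 and -0.54 to -0.35 for strong against weak over all weeks, the last passing only without weak rat 26. By the exact tests it gave -0.10 to 0.0408 at week 1 and -0.0127 to 0.19 at week 4. Of the 10 named correlates, 4 remained among the 10 with week and rat means removed, 5 with rat means, and 4 to 10 with 1 rat left out (4 without weak rat 25, 5 without strong rat 21, 6 without strong rat 5 or 23); in subsets of the samples it was fewer, 5 in strong and 2 in weak regenerators alone and 3, 4, 2 and 1 at weeks 0, 1, 4 and 8 alone. With TMM-scaled values 7 of the 10 remained, miR-192-3p stayed highest (0.61) and miR-199a-5p was lowest (-0.48). The rat as a block changed no call on miR-375-3p. The mean r between weeks, 0.45, was 0.39 with group means removed and 0.45 on log2(RPM + 10), both added after seeing the data. Strong against weak over all weeks stayed negative, from -0.50 to -0.32, in the 13 other fits (FDR 0.0811 to 0.787). The cause of these changes was not tested. With 6 rats a group and treatment not mapped to rats, differences of the size seen between strong and weak regenerators were not resolved.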
